A study of Mus musculus with 12 samples.

Results

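The comparison described here asked which microRNAs (miRNAs) of mouse embryonic fibroblasts (MEFs) responded differently to 12 h of tunicamycin when the cells lacked XBP1. It used 8 of the 12 arrays of the series, 2 in each of 4 groups of C57BL/6 MEFs: XBP1KO with 2 ug/mL tunicamycin for 12 h, XBP1KO untreated, XBP1WT with 2 ug/mL tunicamycin for 12 h, and XBP1WT untreated. The 4 arrays of cells treated for 24 h entered none of the group means compared. They did enter the scaling of the signals, the floor set under them, the filter on detection and the estimate of the spread. The labels give neither the allele of the knockout nor the number of embryos or lines behind each genotype. They describe the replicates of a group as independent experiments. P-values thus measure the spread between such experiments, as far as values lie above the floor described below. The arrays hold no probe for Xbp1 mRNA, and the genotype labels could not be checked on the targeted gene. Each miRNA was given a difference, the log2 response to tunicamycin in XBP1WT minus the log2 response in XBP1KO. A positive difference therefore means that the response of the knockout was the lower of the pair, and a negative one that it was the higher.

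Tunicamycin blocks the first step of N-linked glycosylation, so that unfolded glycoproteins accumulate in the endoplasmic reticulum (ER) and set off the unfolded protein response. One arm of this response is the ER membrane nuclease IRE1, which cuts the Xbp1 mRNA so that it is spliced into the form that encodes the active transcription factor XBP1, an inducer of chaperones, of ER-associated degradation and of lipid synthesis. The other arms run through the kinase PERK and the transcription factor ATF6. A miRNA is a short RNA that guides silencing complexes to mRNAs, mainly through the bases of its seed near the 5′ end, so miRNAs with 1 seed share most of their predicted targets.

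Of 611 mouse miRNAs on the array, 256 were detected by the scanner software on both arrays of at least 1 of the 6 groups of the series and were tested. These fall into 140 miRNAs that were detected on at least 1 array of each of the 4 groups, called measured below, and 116 that were detected on neither array of 1 or more groups, called dark. For a dark group the array gives only an upper limit. In 16 of the dark miRNAs the limits make the difference a lower bound, in 16 an upper bound, and in 84 the sign of the difference is not set by the measurements. Levels are log2 of the scaled signal, with a floor at 3.33 under which values have no order. A fitted difference uses that floor and is itself no bound. A group with both arrays at the floor has no spread in the fit. Standard errors and p-values of such miRNAs therefore do not fully measure the spread between experiments. Bounds were computed with detected signals as measured and each array of a dark group at the highest of its own signal, its detection limit and the floor. An undetected array in a group whose other array was detected entered at the higher of its own signal and the floor. It too gives only an upper limit, so bounds that use it hold only on that reading.

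The mature sequences of the miRNAs on which the results turn are given here because several share a seed or a primary transcript. They are RefSeq sequences of the mouse assembly GRCm38.p6, written 5′ to 3′ with bases 2 to 8, the seed, in capitals. Of the 15 miRNAs that passed the threshold, 14 were found by name, and miR-532-5p was not. The first 2 passed the threshold and share the seed AGCAGCA with the 4 that follow them, which did not.
miR-497: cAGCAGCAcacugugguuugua
miR-195: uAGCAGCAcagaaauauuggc
miR-322: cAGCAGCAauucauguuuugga
miR-15a: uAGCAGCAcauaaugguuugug
miR-15b: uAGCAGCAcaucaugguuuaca
miR-16: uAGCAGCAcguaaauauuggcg
The remaining ones that could be shown follow, with measured members of the same seed family beside miR-30a and miR-196b. miR-30b and miR-30d, also measured members of the miR-30 family, are not shown.
miR-503: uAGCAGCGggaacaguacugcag
miR-30a: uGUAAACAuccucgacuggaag
miR-30c: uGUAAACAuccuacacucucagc
miR-30e: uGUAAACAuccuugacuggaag
miR-196b: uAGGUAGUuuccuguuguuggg
miR-196a: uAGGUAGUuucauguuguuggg
miR-155: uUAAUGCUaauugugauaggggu
miR-434-3p: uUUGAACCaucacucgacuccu
miR-210: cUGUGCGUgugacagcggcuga
miR-9: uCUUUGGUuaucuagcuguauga
miR-9*: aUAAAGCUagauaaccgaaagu
miR-335-5p: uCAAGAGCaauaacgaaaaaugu
miR-290-5p: aCUCAAACuaugggggcacuuu
miR-532-3p: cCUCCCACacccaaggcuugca
miR-542-5p: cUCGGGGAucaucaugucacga
The mature miR-497 lies at chr11:70234730-70234751 and miR-195 at chr11:70235062-70235082, both on the plus strand, 332 bases apart from start to start. On the minus strand of the X chromosome, miR-503 starts 279 bases from miR-322 and 4574 bases from miR-542-5p.

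Signal was lower after treatment in both genotypes. The unscaled signals summed to between 32310 and 78153 over mouse miRNAs on the 4 arrays of 12 h, against 94809 to 185591 on the 4 untreated arrays, and 174 to 200 mouse miRNAs were detected at 12 h against 193 to 222 untreated. The faintest detected miRNA of an array stood at a scaled signal of 7.46 to 14.98 at 12 h and 0.997 to 5.53 untreated, so a miRNA could go dark at 12 h at a level that was still detected untreated. Per the array headers, the untreated arrays share 1 slide and the treated arrays another, so treatment and slide cannot be told apart within a genotype. On both slides the genotypes lie in the same 2 rows, and each scan holds both genotypes. A constant log2 offset of slide, row or scan therefore cancels in the difference where all values used lie above the floor. At the floor such an offset is clipped and need not cancel. In 6 of the 15 miRNAs that passed the threshold, all 4 arrays of 12 h lie at the floor. The part of such offsets in their differences was not tested.

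Most of the response was common to both genotypes. Of the 256 tested miRNAs, 61 rose (23.8%) and 65 fell (25.4%) in XBP1KO, 49.2% in all, by limma at an adjusted p under 0.05. In XBP1WT 65 rose (25.4%) and 65 fell (25.4%), 50.8% in all. The split between rises and falls depended on the processing. With normexp background correction 164 rose and 19 fell in XBP1KO, and 181 rose and 11 fell in XBP1WT. With quantile normalization 58 rose and 105 fell in XBP1KO, and 55 rose and 105 fell in XBP1WT. Shares of rises and falls given below hold for the report's setting only. The difference between the genotypes passed for 15 (5.86%), of which 9 were positive (3.52%) and 6 negative (2.34%), and 37 had an unadjusted p under 0.05. Scaled by the percentile over all mouse miRNAs instead, 8 passed, 7 of them positive, and the median difference over all tested was 0.19 in place of 0.076. Among the 140 measured miRNAs, 67 changed in XBP1KO (47.9%) and 66 in XBP1WT (47.1%), whereas 2 differed in response (1.43%). The median size of the difference over the measured miRNAs was 0.283 log2, below the median standard error of 0.458.

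Across the 140 measured miRNAs the response in XBP1KO ran with that in XBP1WT at a Pearson's r of 0.976 and a Spearman's rho of 0.873, given as a description of miRNAs that share the same arrays. The differences of replicate 1 ran with those of replicate 2 at r = 0.612 and rho = 0.485, and 82 of the 140 had the same sign in both. The median difference was -0.20 in replicate 1 and 0.36 in replicate 2, so the replicates were offset from each other by more than the typical difference.

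**Figure D1:**
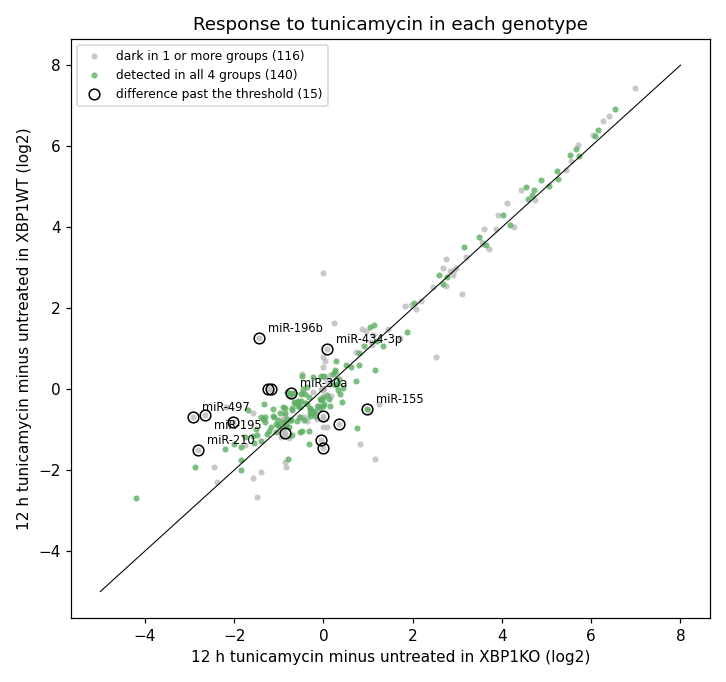
Each point is a tested miRNA, with its response at 12 h in XBP1KO on the x axis and in XBP1WT on the y axis (log2, tunicamycin minus untreated), and the line marks equal responses. The points lie along the line, and the 15 that passed the threshold differ between the genotypes by between 0.22 and 2.70 in size.

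Of the measured miRNAs, miR-155 and miR-30a passed, one in each direction. miR-155, made from the Bic transcript and known as a regulator of inflammatory signalling, read 4.61 and 4.19 log2 in XBP1KO at 12 h and 3.44 and 3.41 in XBP1KO untreated, against 5.80 and 5.68 in XBP1WT at 12 h and 6.21 and 6.27 in XBP1WT untreated. The knockout was low under both conditions, and its groups do not overlap with those of the wild type. In XBP1KO it rose by 0.97 log2 (limma adjusted p = 0.00768), and in XBP1WT the change was -0.50, which did not pass (adjusted p = 0.091). The difference was -1.48 log2 (SE 0.30, adjusted p = 0.0337), at -1.59 and -1.37 in replicates 1 and 2, each taken within a pair of scans; with the scan as a fixed block the adjusted p was 0.0511. The gap between XBP1KO and XBP1WT was thus -1.34 at 12 h (adjusted p = 0.0112) and -2.82 untreated (adjusted p = 0.000156), larger before treatment than after it. miR-155 lies at chr16:84714143-84714165, plus strand, and both of its probes gave a negative difference.

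The value of miR-155 depends on which of the software's signals is read. The signals above are means over the spots of each probe, summed over probes. The software also writes 1 total per miRNA, which the authors deposited on a log2 scale, and with that total the difference of miR-155 is 0.35. On 6 of the 8 arrays only some of the miR-155 probes were called detected. There the written total equals the signal of those probes plus the total of the detected miRNA that precedes it in name order, within 1%. In XBP1KO untreated the written totals of miR-155 were 114 and 133 while its own detected probes gave 17.7 and 17.7, and in XBP1WT untreated both quantities were 81.5 and 104. With its own detected probes alone the difference is -1.86 (limma adjusted p = 0.0328). It also moved with the processing. It was -0.33 with normexp background correction (adjusted p = 0.993) and -1.22 with the percentile over all mouse miRNAs (adjusted p = 0.555). With quantile normalization it was -1.33 (adjusted p = 0.374), and with the floor at the 10th percentile -0.94 (adjusted p = 0.11). None of these passed.

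**Figure D2:**
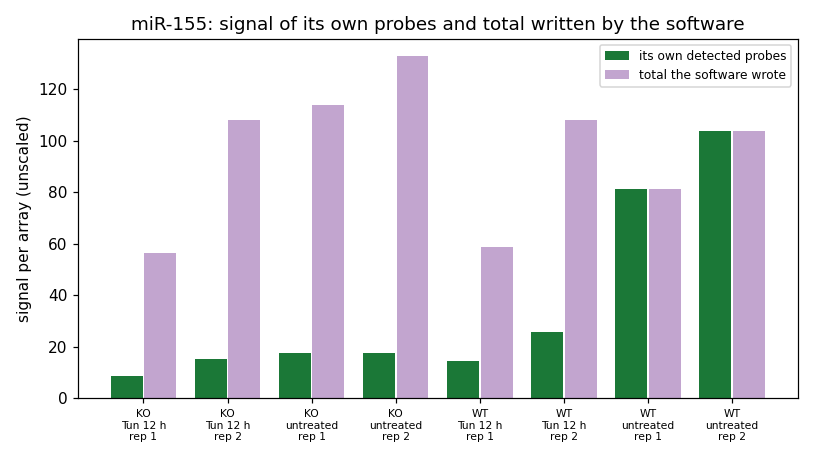
For miR-155, each array has the unscaled signal of its own detected probes and the total that the software wrote. The pair agree within 1% on the XBP1WT untreated arrays (81.5 and 104) and part on the other 6, where the total exceeds the own signal, as in XBP1KO untreated with totals of 114 and 133.

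miR-30a, of a family expressed in many tissues, read 7.85 and 7.71 in XBP1KO at 12 h and 8.51 and 8.52 in XBP1KO untreated, against 7.37 and 7.38 in XBP1WT at 12 h and 7.49 and 7.46 in XBP1WT untreated. All 4 knockout arrays stood above all 4 wild type arrays, most clearly when untreated. In XBP1KO it fell by 0.73 log2 (limma adjusted p = 0.00128), while the change of -0.10 in XBP1WT did not pass (adjusted p = 0.443). The difference was 0.63 (SE 0.14, adjusted p = 0.0486; 0.54 and 0.73 in the replicates), and with the replicate number as a block it did not pass (adjusted p = 0.092), nor with the scan as a block (adjusted p = 0.118). It also fell short with normexp (0.77, limma adjusted p = 0.685) and the percentile over all mouse miRNAs (0.89, adjusted p = 0.47). Quantile normalization (0.36), outlier spots kept (adjusted p = 0.125) and no filter (adjusted p = 0.0856) gave no pass either. Its sign stayed positive in each. The knockout stood 1.04 above the wild type untreated (adjusted p = 0.000478) and 0.40 above it at 12 h, which did not pass (adjusted p = 0.0684). miR-30a lies at chr1:23272274-23272295, plus strand.

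All 5 tested members of the miR-30 family fell in XBP1KO, and 4 fell in XBP1WT, beside 25.4% of all tested miRNAs in each genotype, miR-30a being the one that did not pass in XBP1WT. The differences of the other 4 ran between 0.015 for miR-30e and 0.27 for miR-30c, and none passed. The median difference of the family was 0.15, against 0.08 over all tested miRNAs.

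Other measured miRNAs had differences of like or larger size that did not pass. miR-146b, which damps Toll-like receptor signalling, read 4.51 and 3.73 in XBP1KO at 12 h and 8.28 and 8.34 in XBP1KO untreated, against 4.69 and 4.46 in XBP1WT at 12 h and 7.26 and 7.25 in XBP1WT untreated. It fell by 4.19 log2 in XBP1KO and by 2.68 in XBP1WT, and the difference of 1.51 (SE 0.58) had a limma adjusted p of 0.294. Its seed partner miR-146a, dark in XBP1WT at 12 h, had a fitted difference of -0.61 that did not pass, with an upper bound of -0.37. The levels of both miRNAs were lowest at 12 h in each genotype.

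miR-148a, a regulator of DNA methyltransferase mRNA, read 4.52 and 4.23 in XBP1KO at 12 h and 5.91 and 6.22 in XBP1KO untreated, against 6.51 and 6.5 in XBP1WT at 12 h and 6.92 and 7.11 in XBP1WT untreated. It fell by 1.69 in XBP1KO (limma adjusted p = 0.0054), and the change of -0.51 in XBP1WT did not pass (adjusted p = 0.25). The difference of 1.18 (SE 0.47) did not pass (adjusted p = 0.313), although the knockout stood at -2.13 log2 against the wild type at 12 h (adjusted p = 0.0112). The knockout arrays at 12 h were the lowest of the 8, and the groups do not overlap.

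miR-322 of the AGCAGCA seed fell by 2.88 in XBP1KO and by 1.91 in XBP1WT, with a difference of 0.96 (SE 0.46, limma adjusted p = 0.461). The remaining positive differences of the 8 highest measured miRNAs were 0.96 for miR-23b, 0.81 for miR-140, 0.74 for miR-181b, 0.72 for miR-214 and 0.72 for miR-467b, with adjusted p between 0.724 and 0.965. miR-140 is known from cartilage and miR-214 from mesenchymal cells. None of these 5 passed in the comparison of the genotypes at 12 h or untreated.

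On the negative side, the most extreme measured difference belonged to miR-10a, which is encoded in the HoxB cluster. It read 5.52 and 5.34 in XBP1KO at 12 h and 4.63 and 4.74 in XBP1KO untreated, against 6.04 and 6.10 in XBP1WT at 12 h and 6.99 and 7.06 in XBP1WT untreated. The 4 groups do not overlap, and the knockout was low under both conditions. The difference of -1.70 nevertheless had a standard error of 1.06 (limma adjusted p = 0.724), in a fit that pools the spread of these 4 groups with that of the arrays of 24 h.

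miR-500, encoded in the Clcn5 gene, read 4.59 and 4.69 in XBP1KO at 12 h and 4.99 and 4.95 in XBP1KO untreated, against 4.70 and 5.03 in XBP1WT at 12 h and 6.21 and 6.22 in XBP1WT untreated. The untreated wild type arrays were the high ones. It fell by 1.35 in XBP1WT (limma adjusted p = 0.00366) and changed by -0.33 in XBP1KO without passing, and the difference of -1.02 (SE 0.34) had an adjusted p of 0.223. The other negative differences under the same rule were -0.93 for miR-494, -0.75 for miR-27a, -0.70 for miR-129-5p, -0.56 for miR-689 and -0.56 for miR-93, with adjusted p between 0.119 and 0.965. miR-93 of the cluster in Mcm7 fell in both genotypes, by 0.47 in XBP1KO and by 1.04 in XBP1WT.

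**Figure D3:**
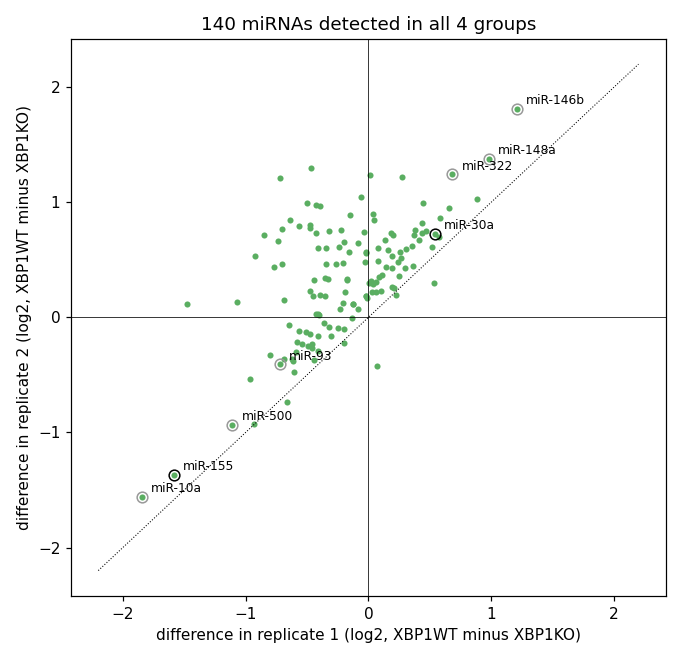
Each of the 140 measured miRNAs is placed by its difference in replicate 1 (x axis) and in replicate 2 (y axis), in log2 as XBP1WT minus XBP1KO. miR-155 stands at -1.59 and -1.37 and miR-30a at 0.54 and 0.73, while the cloud as a whole sits higher in replicate 2 than in replicate 1.

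Of the calls among dark miRNAs, 4 were dark only in groups that are subtracted, so that their difference has a lower bound. This class was formed by the pattern of detection, so its share of calls, 4 of 16, is not a finding about it. miR-497 and miR-195 are neighbours that share a seed and target cell cycle mRNAs such as those of cyclins D and E. miR-497 was at the floor of 3.33 on both XBP1KO arrays at 12 h and at 6.23 and 6.27 in XBP1KO untreated, against 4.21 and 4.52 in XBP1WT at 12 h and 5.09 and 5.04 in XBP1WT untreated. miR-195 was likewise at 3.33 on both XBP1KO arrays at 12 h and at 5.94 and 6.03 in XBP1KO untreated, against 3.67 and 4.44 in XBP1WT at 12 h and 4.69 and 4.72 in XBP1WT untreated. In both, the knockout was the higher genotype untreated (limma adjusted p = 0.015 for miR-497 and 0.00948 for miR-195), and its readings were the lower ones at 12 h, where the comparison of the genotypes did not pass (adjusted p = 0.0529 and 0.12).

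In XBP1KO, miR-497 was at least 7.35-fold lower and miR-195 at least 6.15-fold lower at 12 h than untreated. In XBP1WT, where 1 of the 2 treated arrays detected each, miR-497 fell by 0.70 log2 (limma adjusted p = 0.0422) and miR-195 by 0.65 (adjusted p = 0.0441). The difference was 2.22 for miR-497 (SE 0.33, adjusted p = 0.0116; 2.02 and 2.42 in the replicates). For miR-195 it was 2.01 (SE 0.31, adjusted p = 0.0116; 1.59 and 2.43). With the undetected XBP1WT array of 12 h at its own signal, the lower bounds were 2.18 and 1.97. They are no strict bounds, since that array gives only an upper limit. Neither difference passed with normexp, at 0.99 for miR-497 and 0.94 for miR-195 (limma adjusted p = 0.685 each). Without a floor neither passed (adjusted p = 0.0587 and 0.0807). With quantile normalization and the percentile over all mouse miRNAs miR-497 did not pass (adjusted p = 0.281 and 0.166), while miR-195 did. With outlier spots kept miR-195 did not pass (adjusted p = 0.817), while miR-497 did. The arrays read RNA of whole cultures, in which fewer cells of a type and less RNA per cell cannot be told apart.

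The other members of this seed family did not all share that pattern. Of the 6 tested, 5 fell in XBP1KO and 5 in XBP1WT (25.4% of all tested in each), and 2 differed in response (5.86% of all tested). miR-15a had a difference of -0.04, miR-16 of -0.0031 and miR-15b of 0.16, with limma adjusted p of 1 each, and these are the members from Dleu2 and Smc4. miR-15b read 9.03 and 8.99 in XBP1KO at 12 h and 9.58 and 9.60 in XBP1KO untreated, against 8.79 and 8.86 in XBP1WT at 12 h and 9.23 and 9.24 in XBP1WT untreated. Its responses, -0.58 in XBP1KO and -0.41 in XBP1WT, did not pass. The median difference over the family was 0.56.

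miR-196b, encoded in the HoxA cluster and a repressor of Hox mRNAs, was the third of these. It read 6.46 and 6.13 in XBP1KO at 12 h and 7.74 and 7.75 in XBP1KO untreated, against 4.17 and 4.99 in XBP1WT at 12 h and the floor of 3.33 on both XBP1WT untreated arrays, where it was dark. The knockout was the higher genotype on all arrays, and the genotypes moved in opposite directions. miR-196b fell by 1.45 log2 in XBP1KO (limma adjusted p = 0.0186). In XBP1WT it was detected on 1 of 2 treated arrays and was 2.38-fold higher at 12 h than untreated (adjusted p = 0.0314). That fold takes the undetected array at its own signal and is no strict minimum. Untreated, it was at least 21.3-fold higher in XBP1KO than in XBP1WT (adjusted p = 0.000337). The difference was 2.70 (SE 0.55, limma adjusted p = 0.0337, with 2.12 and 3.28 in the replicates). Its lower bound is also 2.70 with the undetected array at its own signal. With the replicate number as a block the difference did not pass (adjusted p = 0.0707). miR-196b lies at chr6:52230129-52230150, minus strand.

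miR-196a shares the seed of miR-196b and comes from the HoxB and HoxC clusters. It read 5.52 and 5.22 in XBP1KO at 12 h and 4.50 and 4.64 in XBP1KO untreated, against 6.10 and 6.58 in XBP1WT at 12 h and 5.35 and 5.53 in XBP1WT untreated. Here the knockout was the lower genotype under both conditions, and the difference of 0.10 (SE 0.75) did not pass. miR-10b of the HoxD cluster read 7.25 and 6.96 in XBP1KO at 12 h and 8.17 and 8.25 in XBP1KO untreated, against 4.15 and 4.58 in XBP1WT at 12 h and 4.93 and 5.19 in XBP1WT untreated. Its knockout arrays were the higher ones throughout, and its difference of 0.41 (SE 1.68) did not pass. Of the 5 tested miRNAs of the Hox clusters, 1 passed, with a median difference of 0.41.

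miR-434-3p, transcribed opposite to the imprinted gene Rtl1 in the Dlk1-Dio3 cluster, was the fourth. It read 3.33 and 3.5 in XBP1KO at 12 h and 3.33 on both XBP1KO untreated arrays, against 4.15 and 4.49 in XBP1WT at 12 h and 3.33 on both XBP1WT untreated arrays. Only the treated wild type arrays stood clear of the floor, although the software called the untreated arrays of both genotypes detected, at scaled signals of 6.4 and 5.9 in XBP1KO and 9.5 and 8.3 in XBP1WT. It rose by 1.00 log2 in XBP1WT (limma adjusted p = 0.000504), the change of 0.09 in XBP1KO did not pass, and at 12 h it was at least 1.88-fold lower in XBP1KO than in XBP1WT (adjusted p = 0.00524). The difference was 0.91 (SE 0.15, adjusted p = 0.0149; 0.83 and 0.99), and it rests on the floor. With detected signals as measured the lower bound is 0.38, and in a fit without a floor the difference was 0.44 (SE 0.51) and did not pass (adjusted p = 0.832). miR-434-3p lies at chr12:109594565-109594586, plus strand.

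Of the 45 listed miRNAs of the Dlk1-Dio3 cluster, 27 were detected on none of the 8 arrays and 13 were tested, with 1 that passed and a median difference of 0.29. Next by p was miR-337-5p, whose reads on the treated wild type arrays were 3.91 and 4.12 while the other 6 arrays read 3.33 to 3.41. Its difference was 0.65 (SE 0.15, limma adjusted p = 0.066), and it is dark in both knockout groups. In the cluster, 2 of 13 rose in XBP1KO and 4 of 13 in XBP1WT, near the shares of all tested miRNAs (23.8% and 25.4%).

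miR-210, a miRNA induced by hypoxia, is the only call that was dark in a single added group, XBP1WT at 12 h, so that its difference has only an upper bound. It read 4.10 and 3.97 in XBP1KO at 12 h and 6.83 and 6.87 in XBP1KO untreated, against the floor of 3.33 on both XBP1WT arrays at 12 h and 4.85 and 4.81 in XBP1WT untreated. It was highest in the untreated knockout and lowest in the treated wild type. It fell by 2.81 log2 in XBP1KO (limma adjusted p = 4.15e-06) and was at least 1.90-fold lower at 12 h than untreated in XBP1WT (adjusted p = 0.000103). The difference in the fit was 1.31 (SE 0.15, adjusted p = 0.00498; 1.21 and 1.41) and its upper bound is 1.89. Because the dark group bounds the difference from above only, its positive sign is not set by detected values. Untreated, the knockout was 2.02 log2 above the wild type (adjusted p = 3.34e-05). miR-210 lies at chr7:141221407-141221428, minus strand.

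**Figure D4:**
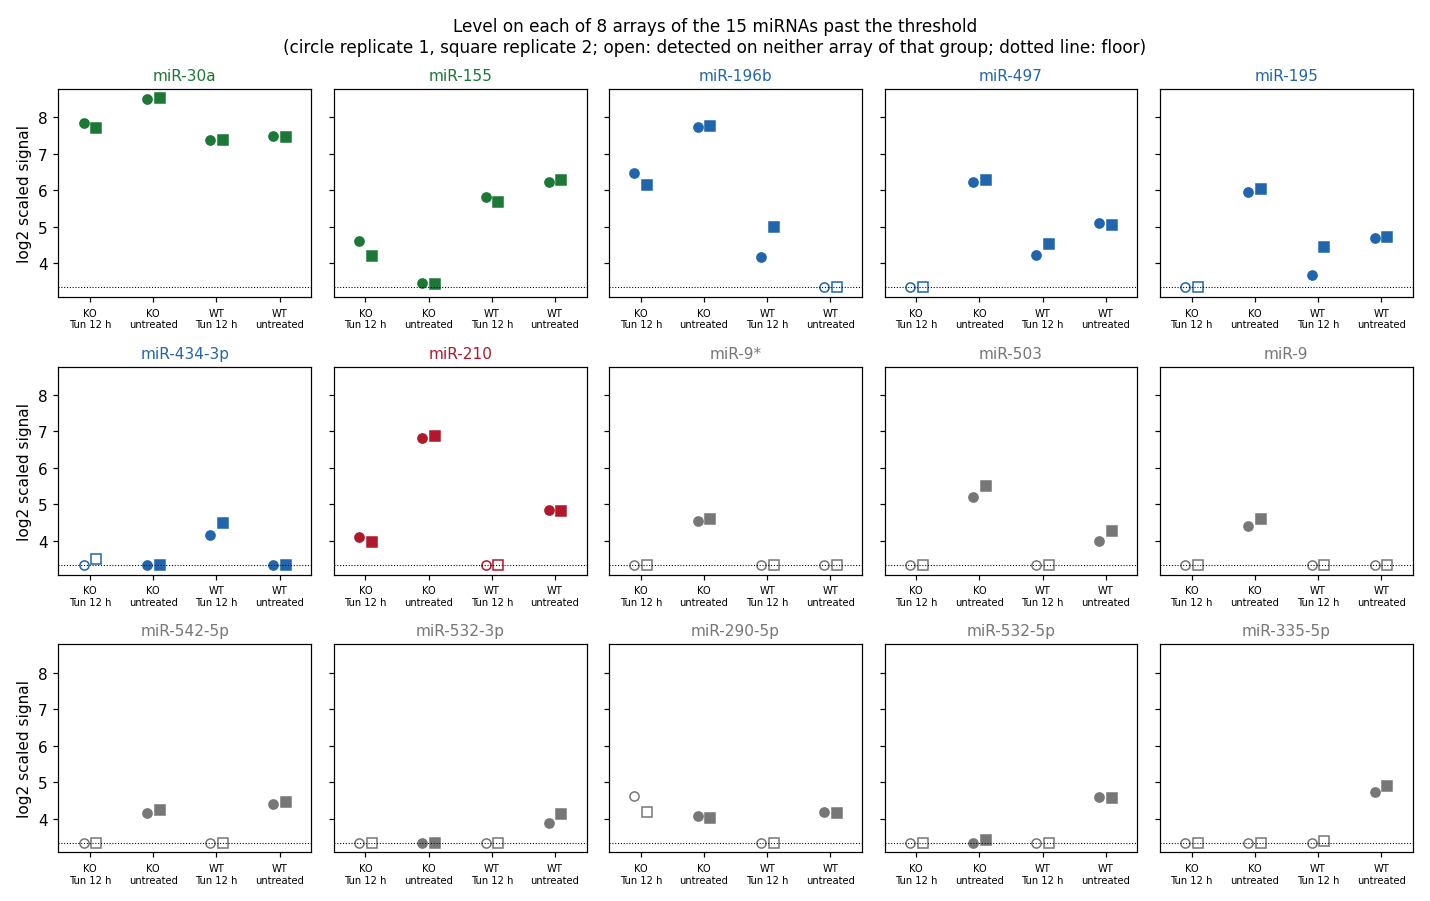
Each panel gives 1 of the 15 miRNAs past the threshold, with the log2 scaled signal on the 8 arrays in the order XBP1KO at 12 h, XBP1KO untreated, XBP1WT at 12 h and XBP1WT untreated; open symbols mark groups with no detection and the dotted line is the floor of 3.33. In 6 panels all 4 arrays of 12 h lie on the floor.

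The other 8 calls have a sign that the measurements do not set. All 8 were dark at 12 h in both genotypes, and in 6 of them all 4 arrays of 12 h were at the floor, so that the value in the fit equals the gap between the genotypes untreated. miR-9 and miR-9*, the arms of a hairpin known from neural progenitors, are examples. miR-9 read 4.39 and 4.59 and miR-9* read 4.53 and 4.59 in XBP1KO untreated, against 3.33 on the other 6 arrays of each. Untreated, they were at least 2.24-fold and at least 2.36-fold higher in XBP1KO than in XBP1WT, and their differences in the fit were 1.17 (SE 0.08, limma adjusted p = 0.000338) and 1.24 (SE 0.27, adjusted p = 0.0466). In a fit without a floor the differences were 3.09 for miR-9 (SE 0.68, limma adjusted p = 0.0807) and 3.14 for miR-9* (SE 0.73, adjusted p = 0.0887). Neither passed there. Of the 4 groups, only the untreated knockout held a detectable amount of either arm, and it carried both past the filter on detection. That group also makes the difference, so the p-values are no independent support for it. Without the filter miR-9* did not pass (limma adjusted p = 0.157), while miR-9 did.

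miR-503, whose seed differs from that of its neighbour miR-322, read 5.21 and 5.52 in XBP1KO untreated against 4.0 and 4.27 in XBP1WT untreated, with all arrays of 12 h at the floor. Its difference in the fit was 1.23 (SE 0.16, limma adjusted p = 0.00693), and it was at least 3.99-fold lower at 12 h than untreated in XBP1KO and at least 1.18-fold lower in XBP1WT. miR-542-5p of the same X-linked cluster read 4.15 and 4.25 in XBP1KO untreated against 4.39 and 4.45 in XBP1WT untreated. Its difference of -0.22 (SE 0.04, adjusted p = 0.0337) becomes 0.53 in a fit without a floor. Of the 6 tested miRNAs of the cluster, 1 passed in each direction (3.52% and 2.34% of all tested), and 4 fell in XBP1KO and 4 in XBP1WT (25.4% of all tested in each).

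miR-532-3p and miR-532-5p come from 1 hairpin in the Clcn5 gene. miR-532-5p read 3.34 and 3.42 in XBP1KO untreated against 4.60 and 4.57 in XBP1WT untreated, and miR-532-3p read 3.33 on both XBP1KO untreated arrays against 3.87 and 4.12 in XBP1WT untreated. Both arms were thus lower in the untreated knockout, and at the floor at 12 h. Their differences in the fit were -1.21 (SE 0.19, limma adjusted p = 0.0116) and -0.67 (SE 0.10, adjusted p = 0.0112). In a fit without a floor they become -0.46 for miR-532-5p (adjusted p = 0.881) and -2.92 for miR-532-3p (adjusted p = 0.0887), and 1 of the 4 probes of miR-532-3p carries its value, the other 3 giving 0. The Clcn5 cluster as a whole was low in the untreated knockout, with 5 of 6 tested miRNAs called lower in XBP1KO than in XBP1WT, beside 7.42% of all tested miRNAs. Its median difference was -0.80, with 2 that passed.

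miR-335-5p, in an intron of the imprinted gene Mest, read 4.73 and 4.89 in XBP1WT untreated, and 3.33 to 3.38 on all other arrays including both XBP1KO groups. It was at least 2.8-fold lower in XBP1KO than in XBP1WT untreated, and in XBP1WT at least 1.88-fold lower at 12 h than untreated. The difference in the fit was -1.46 (SE 0.12, limma adjusted p = 0.00059), and 1 of its 2 probes gave a difference of 0. Of the groups compared, only XBP1WT untreated carried miR-335-5p past the filter on detection, and that group also makes the difference. The p-value is thus no independent support for it. The opposite arm, miR-335-3p, read 6.02 and 5.68 in XBP1KO at 12 h and 3.33 on both XBP1KO untreated arrays, against 5.18 and 6.99 in XBP1WT at 12 h and 5.27 and 5.30 in XBP1WT untreated. The arms parted at 12 h, when miR-335-3p was detected in both genotypes and miR-335-5p in neither. miR-335-3p rose in XBP1KO by 2.52 (adjusted p = 0.00609), and its difference of -1.73 (SE 0.73) did not pass (adjusted p = 0.345).

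miR-290-5p, of a cluster known from embryonic stem cells, read 4.61 and 4.17 in XBP1KO at 12 h, where it was not called detected, and 4.07 and 4.01 in XBP1KO untreated, against 3.33 on both XBP1WT arrays at 12 h and 4.19 and 4.16 in XBP1WT untreated. Its difference was -1.20 (SE 0.20, limma adjusted p = 0.0149). Only the treated wild type arrays were at the floor. The other tested miRNA of the embryonic lists, miR-294, was at the floor on all untreated arrays and read 7.14 and 6.72 in XBP1KO at 12 h, against 6.76 and 7.79 in XBP1WT at 12 h. It rose in both genotypes with a difference of 0.35 (SE 0.70) that did not pass.

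**Figure D5:**
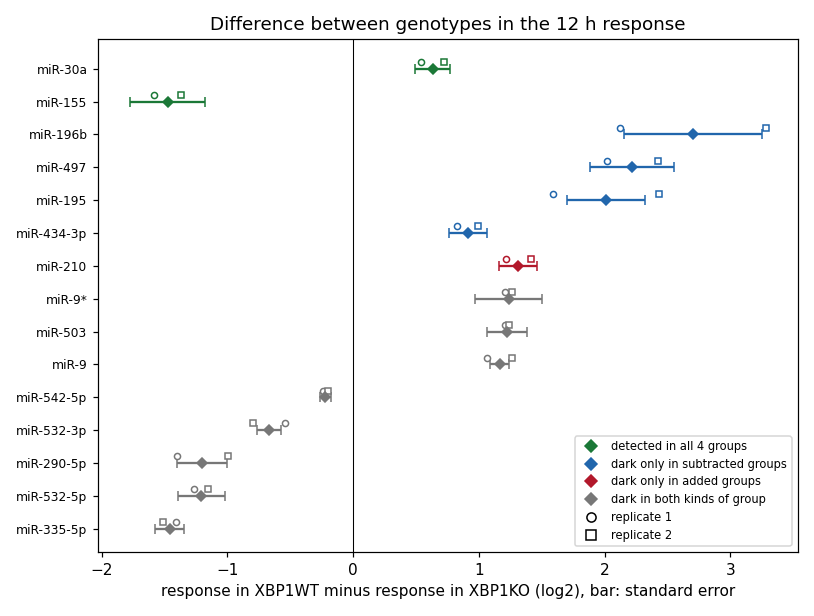
The 15 differences that passed the threshold are drawn with their standard errors (x axis, log2, XBP1WT response minus XBP1KO response), sorted by class. The measured pair stands at -1.48 for miR-155 and 0.63 for miR-30a, the miRNAs dark only in subtracted groups have fitted values between 0.91 and 2.70, miR-210 stands at 1.31, and the 8 dark in both kinds of group hold both signs.

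The 15 calls lie mostly where the genotypes already differed before treatment. Of the 15, 13 also passed in the comparison of XBP1KO with XBP1WT untreated, where 12.5% of all tested miRNAs passed, and 4 passed in the comparison at 12 h, where 5.08% did. These comparisons share arrays with the difference, so the counts are a description. In the 6 calls with all arrays of 12 h at the floor, the difference is the untreated gap itself. All 6 are among the 13, and their passing in both comparisons is no separate result. For miR-335-5p the values were nearly the same, at -1.46 for the difference and -1.48 for XBP1KO minus XBP1WT untreated. The pair that did not pass untreated was miR-434-3p and miR-290-5p. In 10 of the 15 the response in XBP1KO passed, in 11 the response in XBP1WT, and in 6 both.

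No miRNA on the lists of known links to the ER stress pathways used here passed in the difference. These lists are a choice and are not complete, so miRNAs outside them may have such links. The differences of the listed miRNAs that were tested ran from -0.56 for miR-93 to 0.99 for miR-222. The 3 linked to cleavage by IRE1 and the 11 linked to XBP1, PERK, ATF6 or CHOP had median differences of 0.14 and 0.22, against 0.08 over all tested. miR-346, which is known as a target of XBP1 in human cells, read 8.87 and 8.68 in XBP1KO at 12 h, against 8.26 and 9.19 in XBP1WT at 12 h, with the floor of 3.33 on all 4 untreated arrays. It rose in both genotypes, and the difference was -0.04 with a standard error of 1.57, which is an imprecise estimate. miR-211, induced by PERK, rose by 3.55 in XBP1KO and by 3.63 in XBP1WT, with a difference of 0.08 (SE 0.74). For the IRE1-linked miR-34a, miR-96 and miR-125b-5p the differences were 0.41, -0.29 and 0.14, and none had a limma adjusted p below 0.995.

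miR-222 had the lowest p of these lists. It read 3.66 and 3.33 in XBP1KO at 12 h and 4.83 and 5.30 in XBP1KO untreated, against 3.33 on both XBP1WT arrays at 12 h and 3.68 and 4.13 in XBP1WT untreated. It was dark at 12 h in both genotypes, and its difference of 0.99 (SE 0.28) did not pass (limma adjusted p = 0.119). Its cluster partner miR-221 had a difference of 0.22, and both were higher in the untreated knockout. In the list of 3 miRNAs linked to NF-kB, miR-155 passed, and the median difference was -0.61.

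Markers of the labelled cell type were present on the arrays. All 10 fibroblast and mesenchymal miRNAs on the array were detected on at least 1 of the 8 arrays, and their scaled signals summed to 12080 to 14960 in XBP1KO at 12 h and 26160 to 27010 in XBP1KO untreated, against 13090 to 13940 in XBP1WT at 12 h and 19260 to 20560 in XBP1WT untreated. Of the 9 tested, 7 fell in XBP1KO and 5 in XBP1WT (25.4% of all tested in each), none passed in the difference, and the median difference was 0.49. The summed level was the highest in the untreated knockout, and its part in the differences was not tested. The 4 muscle markers summed to 58.7 to 77.9 in XBP1KO at 12 h and 6.75 to 10.6 in XBP1KO untreated, against 32.8 to 104 in XBP1WT at 12 h and 2.17 to 7.67 in XBP1WT untreated. The 13 early embryo markers summed to 141 to 222 in XBP1KO at 12 h and 26.5 to 30.5 in XBP1KO untreated, against 171 to 298 in XBP1WT at 12 h and 35.8 to 46.0 in XBP1WT untreated. Both lists were thus higher at 12 h in each genotype, where 1 muscle marker and 1 embryo marker were detected, and their part in the differences was not tested. None of the 7 epithelial, 2 endothelial, 7 blood and 1 liver markers was detected on any of the 8 arrays. Neural markers summed to 57.7 to 64.6 in XBP1KO at 12 h and 124 to 128 in XBP1KO untreated, against 86.4 to 94.2 in XBP1WT at 12 h and 200.1 to 203.1 in XBP1WT untreated. Among them miR-9 and miR-9* were detected in the untreated knockout alone, whereas miR-129-5p and miR-129-3p were lower there than in the untreated wild type, at -1.66 (limma adjusted p = 0.015) and -1.38 log2 (adjusted p = 0.0104).

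The calls are few and rest on 2 arrays a group. Restricted to the 119 miRNAs detected on all 8 arrays and adjusted over those alone, no difference passed, with 10 at an unadjusted p under 0.05. Without the first XBP1WT array of 12 h 31 passed, and without the first XBP1KO array of 12 h 5 passed.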

How the data were processed

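Total RNA of each culture was labelled with Cy3 and hybridised to 1-colour Agilent mouse miRNA arrays, per the labels' protocols. The authors deposited the scanner output of Agilent Feature Extraction 10.7.1.1, whose processed signals are background-subtracted intensities per the file headers, and a table of log2 values that equal log2 of the software's total per miRNA. The detection calls used here are the software's own, per the file headers.

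Processed intensities were averaged over the spots of each probe that were neither controls nor outliers, summed per mouse miRNA, divided by the 75th percentile of the 95 mouse miRNAs detected on all 12 arrays, floored at the 5th percentile of detected values and set on a log2 scale. The 256 miRNAs called detected on each array of some group were fitted with limma 3.58.1 in R 4.3.3, with an intensity trend, on 12 arrays in 6 groups (6 residual degrees of freedom). P-values were adjusted by Benjamini-Hochberg over the 256 with a threshold of 0.05. The procedure was tested on simulated data. The rate of false calls among miRNAs with arrays at the floor was not tested. Normexp, an alternative, used the median signals in place of the planned mean signals. Array number limits the precision.

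The miRNAs, lists and classes were chosen with earlier results of these data known. Named were all miRNAs past the threshold, the 8 measured ones highest and the 8 lowest with the same sign in both replicates, up to 4 per list by p, and the tested members of their seed families and clusters. miR-346, miR-211 and miR-221 were added after their values were seen. Alternatives varied the background correction, scaling, floor, filter, signal, blocks and arrays. The 4 alternatives with no floor, the percentile over 8 arrays, 8 arrays with the scan, and the total probe signal were added after the data were examined.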

Additional observations from a re-analysis of the deposited data

Results flagged for a closer look

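The 15 miRNAs whose response differed between the genotypes by limma's test of the difference itself are listed with that difference, in log2 as XBP1WT response minus XBP1KO response. Among measured miRNAs it was -1.48 for miR-155 and 0.63 for miR-30a. Among miRNAs dark only in subtracted groups the fitted value was 2.22 for miR-497, 2.01 for miR-195, 2.70 for miR-196b and 0.91 for miR-434-3p. The lower bounds were 2.18, 1.97, 2.70 and 0.38. Those of miR-497, miR-195 and miR-196b take an undetected XBP1WT array of 12 h at its own signal. For miR-210 it was 1.31, with an upper bound of 1.89. With a sign that the measurements do not set, it was 1.17 for miR-9, 1.24 for miR-9*, 1.23 for miR-503, -1.46 for miR-335-5p, -0.67 for miR-532-3p, -1.21 for miR-532-5p, -0.22 for miR-542-5p and -1.20 for miR-290-5p.

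The arrays also carry probes for viral miRNAs, which no comparison above used, and 3 of these gave more signal at 12 h than untreated in both genotypes. The probe set mghv-miR-M1-2 stood 3.83 log2 above untreated in XBP1KO and 3.72 in XBP1WT, mghv-miR-M1-6 stood 2.45 and 2.51 above, and mcmv-miR-m59-2 stood 0.17 and 0.56 above. At 12 h the last was detected on 0 of 2 XBP1KO arrays and 1 of 2 XBP1WT arrays, and its values lie close to the floor.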

How the results depend on the processing

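Each result was recomputed under 32 other settings, 28 of them planned, of which 12 left out 1 array. Of the 15 called differences, 9 (miR-30a, miR-497, miR-195, miR-196b, miR-434-3p, miR-210, miR-9, miR-9* and miR-532-3p) kept their sign in every setting that tested them, all 15 fell short of the threshold in at least 1, and 38 of the 55 other named miRNAs changed sign in at least 1. The total written by the software holds signal of other miRNAs, and some settings test fewer miRNAs or arrays by construction. For the others the cause was not tested. Signal over background limits the dark miRNAs.

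The 15 calls of the difference became 6 with normexp, 8 with the percentile over all mouse miRNAs, 26 with the total gene signal, 0 with only the 134 miRNAs over the floor on each of 8 arrays (11 at an unadjusted p under 0.05), 0 with the 119 detected on all 8 (10 unadjusted), 6 without the filter, and 31 in a fit of the 8 arrays alone. Chosen after seeing the data, no floor gave 2, the percentile over 8 arrays 9 and the total probe signal 9. The miRNAs called were often not the same ones. Among the 15 were 1 of the 6 with normexp and 6 of the 8 with all mouse miRNAs. With the total gene signal 4 of the 26 were, with quantile normalization 7 of 14, and with the deposited values 1 of 11. Of the measured calls, 0 of 5 with normexp and 0 of 3 with quantile normalization were among the 15. For the measured class, with 2, the counts were 5 with normexp, 0 with all mouse miRNAs, 7 with the total gene signal, 11 with the deposited log2 values, 1 with outlier spots kept, 1 with the floor at the 10th percentile, 0 in both restricted sets, 1 without the filter, 8 in the 8 arrays, 1 with the replicate block, 0 with the scan as a fixed block, 0 without a floor, 0 with the percentile over 8 arrays and 1 with the total probe signal. For the dark class, with 13, they were 1 with normexp, 8 with all mouse miRNAs, 0 among those above the floor, 5 without the filter, 23 in the 8 arrays, 20 there with the scan as a block, 2 without a floor and 8 with the total probe signal.

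Calls between XBP1KO and XBP1WT at 12 h, 13 in the report's setting, were 5 with normexp, 4 with all mouse miRNAs, 7 with quantile normalization, 26 with the total gene signal, 23 with the deposited values, 8 with the higher floor, 7 above the floor, 6 detected on all 8, 59 in the 8 arrays, 50 there with the scan, 5 without a floor and 6 with the percentile over 8 arrays. Untreated, with 32, they were 15, 18 and 21 with normexp, all mouse miRNAs and quantile normalization, 12 above the floor, 11 detected on all 8, 66 in the 8 arrays, 58 there with the scan and 20 with the percentile over 8 arrays. The XBP1KO response, with 126, gave 65 above the floor and 60 detected on all 8, and the XBP1WT response, with 130, gave 60 and 56, and 81 with the deposited values.

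Leaving out 1 array gave 5 to 31 differences, 0 to 6 in the measured and 5 to 29 in the dark class, 86 to 144 XBP1KO responses, 85 to 148 XBP1WT responses, 5 to 40 calls between genotypes at 12 h and 19 to 56 untreated. The difference count was 31 without XBP1WT 12 h replicate 1, 5 without XBP1KO 12 h replicate 1 and 23 without either XBP1KO 24 h array. The difference of miR-155 then ran between -1.69 and -1.26 and that of miR-30a between 0.56 and 0.70. For miR-210 it ran between 1.25 and 1.37 and for miR-503 between 1.07 and 1.38. For miR-335-5p it ran between -1.54 and -1.38 and for miR-9 between 1.07 and 1.27. These last 4 lie at the floor on 2, 4, 5 and 6 of the 8 arrays. Leaving out an array there adds no spread, so their ranges do not measure precision. Without a floor miR-210, miR-503 and miR-9 did not pass (limma adjusted p = 0.341, 0.359 and 0.0807), while miR-335-5p did.

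Signs turned with normexp for miR-290-5p (0.063), miR-335-5p (0.34), miR-532-5p (0.28) and miR-542-5p (0.15). miR-542-5p was 0.17 with all mouse miRNAs, 0.088 with quantile normalization, 0.052 with outlier spots kept and 0.53 without a floor. With the total gene signal miR-155 was 0.35, miR-290-5p 1.45, miR-503 -0.78, miR-541 -2.66, miR-322* 5.10 and miR-136 -2.19. miR-155 was 0.35 with the deposited values, miR-290-5p 0.044 with the total probe signal, and miR-615-3p ran between -0.24 without XBP1WT 12 h replicate 2 and 1.20 without replicate 1.

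Deviations of same-numbered arrays correlated at 0.90 between XBP1KO and XBP1WT untreated and 0.703 at 12 h, each pair sharing a scan, and at 0.123 to 0.355 for the other pairs of the 4 groups. With only 2 numbers this does not settle a pairing. With the replicate block 12 differences passed, without miR-30a, miR-196b and miR-9* (adjusted p 0.0707). With the scan as a fixed block 12 passed, without miR-155, miR-30a, miR-196b (adjusted p 0.103), miR-290-5p (0.0561) and miR-9* (0.0912). The slide as a random block was not run, since each group lies on 1 slide.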

Other observations

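The software's total signal per miRNA, from which the deposited log2 values come, holds signal of other miRNAs in part of the cases. A miRNA was called detected on an array exactly where at least 1 of its probes exceeded 3 times its error, in all 7800 pairs of miRNA and array over 12 arrays, 2189 of which were detected. In the 1394 pairs with all probes above that limit, the total equalled the sum of the miRNA's own probes within 1%. In the 795 pairs with only some probes above it, the total equalled the own sum in 107 and was higher in 688. Of those 688, 681 equal the own sum plus the total of the preceding detected miRNA in name order, and the other 7 are the first detected miRNA of their array. Where the total was higher, its median ratio to the own signal was 7.84 and the highest 1550.

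Of the 256 tested miRNAs, 147 had such a total on at least 1 of the 8 arrays, as had 12 of the 15 that passed, all but miR-210, miR-9 and miR-9*. Across the 8 arrays this holds for miR-155, miR-434-3p, miR-532-3p, miR-532-5p and miR-542-5p on 4 to 6 arrays each. The probe signals used for the comparison do not draw on these totals.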
